A study of Mus musculus with 87 samples.

Results

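The immunity-related GTPases (IRGs) of the mouse are described here across neurons and glia of the ventral midbrain after an intracerebral injection of interferon-γ (IFN-γ). The members are the 10 genes Irgm1, Irgm2, Igtp, Iigp1, Tgtp1, Tgtp2, Gm4951, F830016B08Rik, 9930111J21Rik2 and BC023105, taken by symbol from a table of 48526 genes. Wild-type C57BL/6J mice, adults of both sexes aged 6 to 12 months, received 40 ng of recombinant mouse IFN-γ in 400 nL of saline, or saline alone, and carried no transgene or other agent. Nuclei were sorted with an antibody to the neuronal nuclear protein NeuN and sequenced from their 3′ ends in 84 plate wells, 42 with NeuN- nuclei, which are mostly glial, and 42 with NeuN+ nuclei. Each fraction held 6 IFN-γ wells at each time (6, 24, 48 and 72 h), and 4, 6, 4 and 4 saline wells at these times. A second experiment sequenced single nuclei at 48 h, with 1 library from saline and 2 libraries from IFN-γ injections. The wells of a group are separate samples by their labels, but several were sorted from the same mouse and the source does not tell which, so the p-values below measure the spread between wells.

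IRGs are large GTPases that interferons induce in mouse cells, where they act against bacteria and parasites that live inside vacuoles, Toxoplasma gondii being the best known. The effector proteins, among them Irga6 (gene Iigp1) and Irgb6 (genes Tgtp1 and Tgtp2), gather on the vacuole membrane and break it, whereas the regulators Irgm1, Irgm2 and Irgm3 (gene Igtp) sit on the cell's own membranes and keep the effectors inactive there. Interferon-induced genes respond through gamma-activated sites (GAS) and through interferon-stimulated response elements (ISRE), which IRF1 and related factors bind.

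The members lie on 2 chromosomes of the GRCm38 assembly. On chromosome 11 the annotation places Irgm1 (ENSMUSG00000046879) at chr11:48861968-48871683 on the minus strand, Tgtp1 (ENSMUSG00000078922) at chr11:48985327-48994172, 9930111J21Rik2 (ENSMUSG00000069892) at chr11:49015874-49051242 and Tgtp2 (ENSMUSG00000078921) at chr11:49057194-49064206, all 3 on the minus strand, and Irgm2 (ENSMUSG00000069874) at chr11:58199618-58222782 and Igtp (ENSMUSG00000078853) at chr11:58199556-58207591 on the plus strand. On chromosome 18, all on the plus strand, lie Gm4951 (ENSMUSG00000073555) at chr18:60212080-60247820, F830016B08Rik (ENSMUSG00000090942) at chr18:60293380-60303016, Iigp1 (ENSMUSG00000054072) at chr18:60376027-60392634 and BC023105 (ENSMUSG00000063388) at chr18:60441765-60442980. BC023105 is annotated as a processed pseudogene and the other 9 as protein-coding genes. In the single-nucleus data, reads from introns as well as exons were counted.

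2 members cannot be measured apart from a neighbour. Igtp lies inside Irgm2 on the same strand over 99.2% of its length and 96.9% of its exonic bases, and it was counted with 0 unique molecular identifiers (UMIs, 1 per captured transcript) in every well and in every nucleus, so its zeros say nothing of its expression. Of the exonic bases of Tgtp1, 87.1% lie within the span, introns included, of the gene Gm12185 on the same strand. The last exon of Tgtp1 matches that of Tgtp2 at all but 5 of 2568 bases (99.8% identity). Tgtp1 received 7 UMIs in the 84 wells and Tgtp2 1788, and how the counting divided reads of the pair is open. Values for Irgm2 and Tgtp2 may therefore include transcripts of Igtp and Tgtp1.

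The sequences before the start sites show which members carry the letters of the elements named above, within reach of the factors that IFN-γ activates. RefSeq promoters on GRCm38.p6, from 250 bases before to 50 bases after the start, were at hand for 6 of the 10 members, all on chromosome 11. Both strands were searched for a GAS written as TTCNNNGAA and an ISRE written as GAAANNGAAA. The 150 bases before each start are printed 5′ to 3′ on the gene's own strand, with letters of a match in capitals.
Irgm1, chr11:48871421-48871570, minus strand: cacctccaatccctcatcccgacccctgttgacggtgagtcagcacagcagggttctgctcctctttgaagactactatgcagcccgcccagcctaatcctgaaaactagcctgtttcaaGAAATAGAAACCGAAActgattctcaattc
Irgm2, chr11:58214827-58214976, plus strand: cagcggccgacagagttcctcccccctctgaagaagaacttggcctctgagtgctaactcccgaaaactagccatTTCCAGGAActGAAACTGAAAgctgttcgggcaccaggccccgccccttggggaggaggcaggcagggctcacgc
Igtp, chr11:58199406-58199555, plus strand: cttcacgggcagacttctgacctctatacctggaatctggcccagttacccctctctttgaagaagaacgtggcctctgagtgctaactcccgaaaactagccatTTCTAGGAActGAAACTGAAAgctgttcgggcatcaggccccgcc
Tgtp1, chr11:48992247-48992396, minus strand: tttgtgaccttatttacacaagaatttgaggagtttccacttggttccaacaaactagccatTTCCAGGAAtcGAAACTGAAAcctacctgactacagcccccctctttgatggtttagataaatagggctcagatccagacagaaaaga
Tgtp2, chr11:49064213-49064362, minus strand: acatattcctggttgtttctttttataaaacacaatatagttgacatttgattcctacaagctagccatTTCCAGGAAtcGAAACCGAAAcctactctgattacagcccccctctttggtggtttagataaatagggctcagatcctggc
9930111J21Rik2, chr11:49051243-49051392, minus strand: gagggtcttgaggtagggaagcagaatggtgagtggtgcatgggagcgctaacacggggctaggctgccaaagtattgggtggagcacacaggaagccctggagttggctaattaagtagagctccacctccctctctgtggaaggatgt

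Irgm2, Igtp, Tgtp1 and Tgtp2 each held 1 GAS followed, after 2 letters, by 1 ISRE. The GAS began 75, 45, 88 and 81 bases before the start in these 4 genes and the ISRE 64, 34, 77 and 70 bases before it. Irgm1 held 2 overlapping ISREs, which began 30 and 24 bases before the start, and no GAS. 9930111J21Rik2 held neither element in this window. Among 32851 promoters of the same length, 8.3% held a GAS, 3.44% an ISRE and 0.454% both. The starts are those of RefSeq, and those of Irgm1, Irgm2 and Tgtp1 lie inside the longer gene models given above. Which elements are found, or not found, depends on the start chosen. These matches are descriptions of the letters and do not show binding.

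The fractions were checked against markers of each cell type, as summed CPM, the count of a gene scaled to the same total of UMIs in every well. Neuronal markers ranged from 160 to 780 CPM in NeuN- wells and from 3636 to 5621 CPM in NeuN+ wells, and oligodendrocyte markers from 2347 to 8692 and from 157 to 700 CPM, so no well went against its fraction. Astrocyte and microglia markers had medians of 998 and 252 CPM in NeuN- and 172 and 59.5 CPM in NeuN+ wells, and T cell markers had a median of 0 in both. NeuN- wells were the shallower, with 20962 to 301445 UMIs against 277113 to 1684374 in NeuN+ wells, so a single UMI weighs more in a glial well. In NeuN- wells the oligodendrocyte markers also moved with the injection. Their median was 4579 CPM at 6 h and 2616 CPM at 24 h after IFN-γ against 7839 and 7721 CPM after saline, with 4 and 6 of 6 markers called lower, and 7489 and 7935 CPM against 8195 and 8178 CPM at 48 and 72 h, with 0 called by edgeR. Astrocyte markers had medians of 1913 and 1093 CPM after IFN-γ at 24 and 48 h against 790 and 659 CPM after saline, with 2 and 1 of 3 tested called higher, and microglia markers 98.7, 176 and 188 CPM at 6, 24 and 48 h against 277, 308 and 331 CPM, with at most 1 marker tested and 0 called. In NeuN+ wells the oligodendrocyte markers had medians of 182 CPM at 6 h and 669 CPM at 72 h after IFN-γ against 302 and 373 CPM after saline. Their part in the IRG values was not tested. In such sorted pools, fewer nuclei of a type and less RNA per nucleus cannot be told apart. The times also differ in the sex of the mice: Xist, transcribed from the inactive X chromosome, ranged from 878 to 1266 CPM in the NeuN+ IFN-γ wells of 6 and 48 h and from 23.2 to 74.9 CPM in those of 24 and 72 h. Within a time the groups also differed: at 24 h the NeuN+ saline wells ran from 20.99 to 1177 CPM of Xist, and at 6 h 4 Y-linked genes summed to between 151 and 224 CPM in NeuN+ saline wells against 4.30 to 9.99 CPM in IFN-γ wells. At those times the sex of the mice and the treatment cannot be fully told apart.

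The first question was how much of each IRG transcript a resting midbrain holds. Saline wells held little. Summed over the 10 members, the 18 NeuN- saline wells held 27.2 CPM at the lowest, 80.2 CPM at the median and 145 CPM at the highest, and the 18 NeuN+ saline wells 3.6, 10.1 and 15.1 CPM. The member seen in most NeuN- saline wells was 9930111J21Rik2, in 17 of 18 wells with 0, 25.8 and 62.4 CPM at the lowest, median and highest. Irgm1, the regulator, was the one seen in most NeuN+ saline wells, in 16 of 18 with 0, 2.39 and 7.57 CPM. BC023105 was caught in 3 of 18 saline wells of each fraction, with 3 UMIs in each. Igtp and Tgtp1 had no UMI in saline wells, and since reads of both may have been counted elsewhere, no limit on their level follows. Counting intervals below, and floors of 3 UMIs for a group of wells with none, cover counting error only.

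After IFN-γ the summed IRG level rose in both fractions at every time, and no IFN-γ well overlapped a saline well. In NeuN- nuclei at 6 h the saline wells held 90.0, 124, 137 and 145 CPM and the IFN-γ wells 2846 CPM at the lowest, 2989 CPM at the median and 3403 CPM at the highest, a ratio of the groups' pooled levels of 24.5. At 24 h the IFN-γ wells held 3828, 4812 and 5119 CPM against at most 110 CPM after saline, a ratio of 68.9. The range at 48 h was 1104 to 1610 CPM against 33.7 to 112 CPM, and at 72 h 687 to 996 CPM against 27.2 to 71.9 CPM. The ratios were 21.2 (counting interval 14.7 to 31.6) and 18.0 (12.1 to 27.9). NeuN+ wells stood lower throughout, while the ratio at 24 h was alike. Its counting intervals were wide, 49.9 to 98.0 in NeuN- and 53.7 to 89.8 in NeuN+ nuclei. Their IFN-γ wells held 214, 265 and 284 CPM at 6 h against 5.37, 11.7, 14.4 and 15.1 CPM after saline, and 542, 589 and 610 CPM at 24 h against at most 12.5 CPM, with ratios of 23.8 and 68.9. At 48 h they held 52.3 to 97.2 CPM and at 72 h 44.9 to 62.8 CPM, against at most 12.3 and 12.9 CPM after saline. The ratios were 8.81 (counting interval 6.19 to 12.9) and 5.24 (3.76 to 7.48). The plot of levels by well shows the same for each gene.

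**Figure D1:**
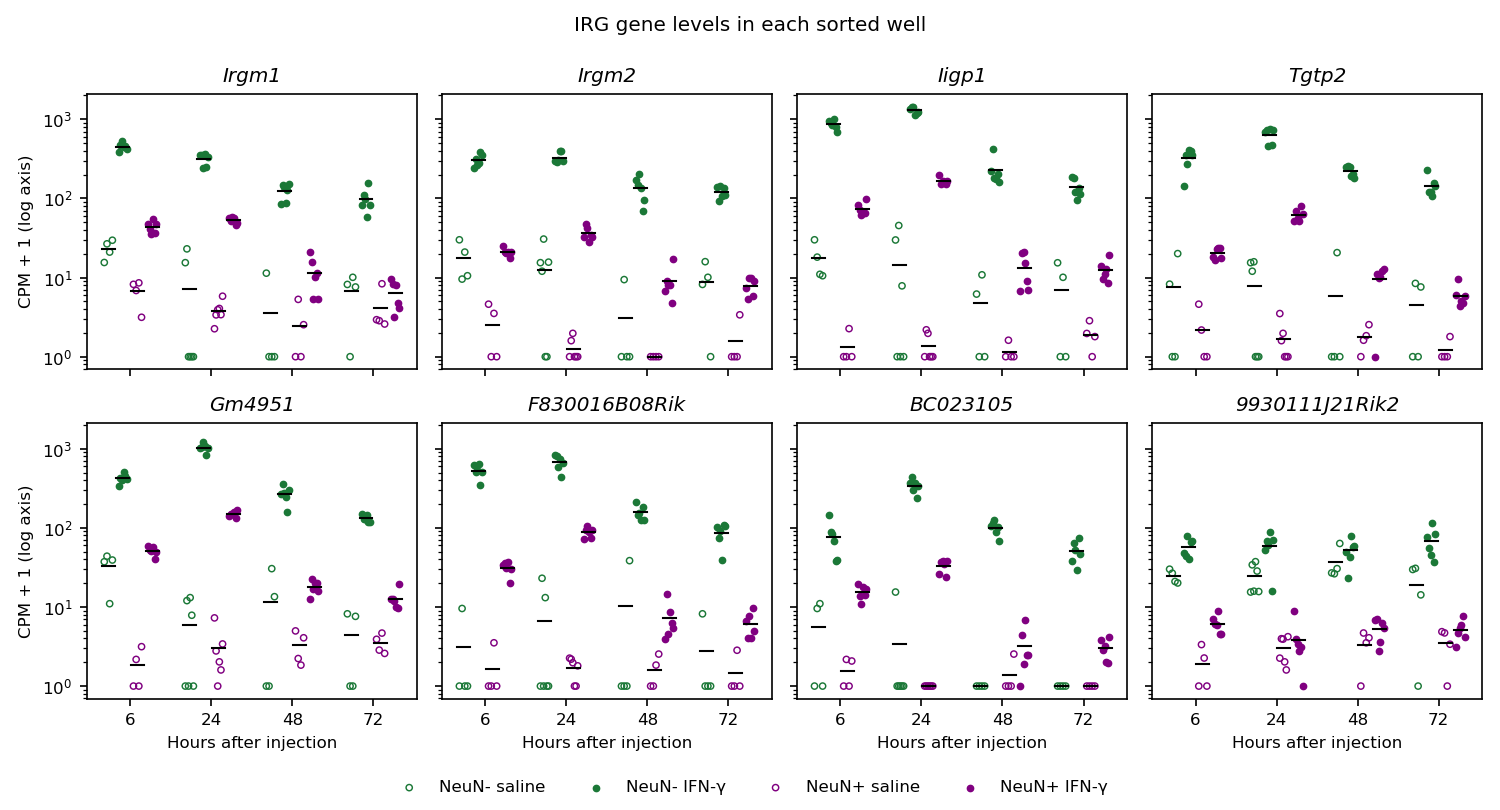
Level of 8 IRG genes in every plate well, as CPM + 1 on a log axis, by hours after injection, fraction and treatment; points are wells and bars are group means. IFN-γ wells of Iigp1 lie above all saline wells of the same fraction at each time, from 1139 to 1446 CPM in NeuN- nuclei at 24 h, whereas those of 9930111J21Rik2 overlap the saline wells in 5 of 8 comparisons.

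Each gene was then compared between IFN-γ and saline wells of 1 fraction and time with the quasi-likelihood test of edgeR, on genes with enough counts, and called when the log2 difference passed 1 and the p-value, adjusted by Benjamini and Hochberg over all genes tested, was under 0.01. In NeuN- nuclei all members that passed the filter on low counts were called higher, 6 of 10 members at 6 h, 7 at 24 h, 7 at 48 h and 6 at 72 h, where 7.86%, 7.22%, 1.23% and 0.754% of all genes tested were called higher. In NeuN+ nuclei 7 members were tested and called higher at both 6 and 24 h, beside 1.08% and 1.47% of all genes, 2 of 3 tested at 48 h, beside 0.15%, and 2 of 2 at 72 h, beside 0.351%. A member low in saline passed the filter only through its IFN-γ wells, so these counts are read beside the wells themselves. The filter also decides the late counts: the 2 calls in NeuN+ nuclei at 72 h became 0 without IFN-γ well 1, 3 or 6, and the 7 in NeuN- nuclei at 48 h became 4 without IFN-γ well 3, because members then missed the filter, while those still tested were called. IFN-γ wells lay wholly above the saline wells for 8, 7, 7 and 8 of the 10 members at the 4 times in NeuN- nuclei, beside 2.19%, 2.19%, 1.04% and 0.851% of all genes detected, and for 8, 7, 5 and 6 members in NeuN+ nuclei, beside 2.81%, 1.47%, 0.578% and 2.11%. The median log2 difference over the members tested in NeuN- nuclei was 4.89, 6.63, 5.47 and 4.60 in order of time, where that of all genes was within 0.02 of 0. The plot of log2 differences gives each estimate with its error.

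**Figure D2:**
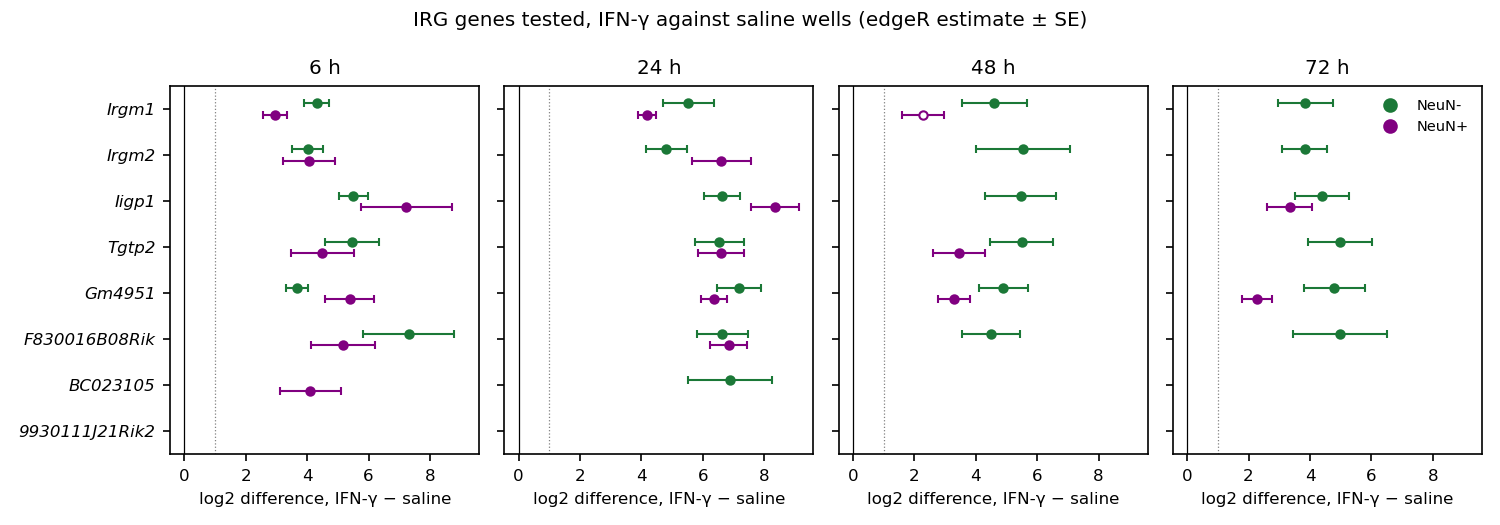
Log2 difference between IFN-γ and saline wells for each IRG gene tested, with its SE, at 6, 24, 48 and 72 h; filled points were called, the dotted line marks a difference of 1, and genes with no saline UMI or too few counts are not drawn. Every estimate is above 0, from 2.27 for Gm4951 in NeuN+ nuclei at 72 h to 8.36 for Iigp1 in NeuN+ nuclei at 24 h, and 1 of those drawn, Irgm1 in NeuN+ nuclei at 48 h, was not called.

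Among the regulators, Irgm1 had its highest mean in NeuN- nuclei at 6 h. In NeuN- nuclei at 6 h its saline wells held 14.5, 20.0, 25.7 and 28.6 CPM and its IFN-γ wells 382, 455 and 524 CPM at the lowest, median and highest, with no overlap, a log2 difference of 4.31 (SE 0.41, adjusted p = 2.74e-16, edgeR). Its IFN-γ wells then held 241, 343 and 365 CPM at 24 h, 84.1, 132 and 153 CPM at 48 h and 57.2, 89.4 and 154 CPM at 72 h, against at most 22.1, 10.4 and 9.08 CPM after saline. The log2 differences were 5.53 (SE 0.82), 4.60 (SE 1.06) and 3.85 (SE 0.89), with adjusted p of 1.23e-12, 1.56e-07 and 3.77e-06 in edgeR. In NeuN+ nuclei Irgm1 rose from the most visible resting level. Its NeuN+ saline wells at 6 h held 2.15, 5.86, 7.22 and 7.57 CPM and its IFN-γ wells 35.0, 43.1 and 53.6 CPM, a log2 difference of 2.94 (SE 0.39, adjusted p = 5.80e-09, edgeR). At 24 h the IFN-γ wells held 44.6, 53.4 and 56.8 CPM against 1.25, 2.66 and 4.81 CPM, a log2 difference of 4.19 (SE 0.29, adjusted p = 7.60e-14, edgeR). At 48 h the groups still lay apart, from 4.39 to 20.3 CPM against at most 4.30 CPM, but the log2 difference of 2.28 (SE 0.70) had an adjusted p of 0.056 in edgeR and was not called. At 72 h the groups overlapped, from 2.21 to 8.59 CPM against 1.59, 1.85, 1.93 and 7.35 CPM.

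Irgm2, whose reads may include those of Igtp, rose in both fractions. In NeuN- nuclei its IFN-γ wells held 239, 298 and 380 CPM at 6 h against 8.56, 9.55, 20.0 and 29.0 CPM after saline, and 285, 300 and 397 CPM at 24 h against at most 29.7 CPM. The log2 differences were 4.02 (SE 0.50) and 4.82 (SE 0.67), with adjusted p of 9.41e-13 and 9.92e-12 in edgeR, and no well overlapped. The IFN-γ wells fell to between 68.3 and 200 CPM at 48 h and between 91.4 and 141 CPM at 72 h, still above saline wells of at most 8.42 and 14.9 CPM, and the gene was called higher at both times. In NeuN+ nuclei the IFN-γ wells held 16.6, 20.1 and 24.0 CPM at 6 h against 0, 0, 2.52 and 3.61 CPM, and 27.3, 32.3 and 46.1 CPM at 24 h against at most 0.973 CPM. The log2 differences were 4.07 (SE 0.84) and 6.60 (SE 0.96), with adjusted p of 4.82e-07 and 9.75e-13 in edgeR. At 48 h no NeuN+ saline well held a UMI of Irgm2 while the IFN-γ wells held 3.71 to 16.2 CPM, at least 9.91-fold higher than the 3 UMIs that a count of 0 allows over the saline group.

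Of the effectors, Iigp1, which encodes Irga6, rose from almost nothing in NeuN+ wells. In NeuN+ nuclei its saline wells at 6 h held 0, 0, 0 and 1.26 CPM, 1 UMI in all, and its IFN-γ wells 60.2, 67.7 and 97.1 CPM, a ratio of the pooled levels of 211 with a counting interval of 37.7 to 8358. At 24 h the IFN-γ wells held 151, 164 and 199 CPM against 0 to 1.19 CPM, a log2 difference of 8.36 (SE 0.79, adjusted p = 6.52e-19, edgeR) that rests on 3 saline UMIs and a ratio of 402 with an interval of 137 to 1952. At 48 h they held 5.81, 11.2 and 20.2 CPM against at most 0.614 CPM, and at 72 h 7.64, 11 and 18.3 CPM against 0, 0.794, 0.967 and 1.85 CPM, a log2 difference of 3.34 (SE 0.73, adjusted p = 2.00e-05, edgeR). None of these IFN-γ wells reached down to a saline well. In NeuN- nuclei the IFN-γ wells held 685, 880 and 1000 CPM at 6 h against 9.55, 10.0, 17.1 and 29.0 CPM, and 1139, 1307 and 1446 CPM at 24 h against at most 44.5 CPM. The log2 differences were 5.50 (SE 0.48) and 6.63 (SE 0.59), with adjusted p of 1.74e-19 and 2.30e-17 in edgeR. At 48 and 72 h the wells held 163 to 417 and 95.4 to 188 CPM against at most 9.83 and 14.4 CPM, with log2 differences of 5.47 (SE 1.15) and 4.40 (SE 0.88), both called.

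Tgtp2, which encodes Irgb6 and may hold reads of Tgtp1, followed the same course. In NeuN- nuclei its IFN-γ wells held 143, 353 and 413 CPM at 6 h against 0, 0, 7.25 and 19.1 CPM, and 462, 709 and 748 CPM at 24 h against at most 14.8 CPM, with ratios of 52.9 (counting interval 17.9 to 258) and 120 (40.8 to 583). At 48 and 72 h they ranged from 182 to 259 and from 105 to 225 CPM, against at most 19.7 and 7.44 CPM, and Tgtp2 was called higher at all 4 times. In NeuN+ nuclei the IFN-γ wells held 15.8, 19.6 and 22.5 CPM at 6 h against 0, 0, 1.17 and 3.61 CPM, and 51.1, 59.0 and 79.8 CPM at 24 h against at most 2.51 CPM, log2 differences of 4.49 (SE 1.02) and 6.60 (SE 0.75) with adjusted p of 4.86e-07 and 5.22e-14 in edgeR. At 48 h 1 of the 6 IFN-γ wells held no UMI and the others 8.79 to 11.8 CPM, against 0, 0.614, 0.841 and 1.54 CPM, a log2 difference of 3.46 (SE 0.85, adjusted p = 0.00141, edgeR) that was not called by DESeq2 (adjusted p = 0.0157), nor by edgeR without saline well 2 (0.0363) or 3 (0.0102). Tgtp1 was seen only in IFN-γ wells, with 3 and 1 UMIs in the NeuN- wells of 6 and 24 h and 3 in the NeuN+ wells of 6 h, too few for any comparison.

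Gm4951 and F830016B08Rik, which are annotated genes of the family on chromosome 18, rose too. In NeuN- nuclei Gm4951 began from 10.0, 36.3, 38.2 and 42.8 CPM in the saline wells of 6 h, against IFN-γ wells of 334, 421 and 509 CPM, a log2 difference of 3.66 (SE 0.36, adjusted p = 1.25e-14, edgeR). At 24 h its IFN-γ wells held 824, 1028 and 1205 CPM against 0 to 12.1 CPM, a ratio of 179 (counting interval 60.9 to 868). In NeuN+ nuclei they held 39.1, 50.3 and 57.3 CPM at 6 h against at most 2.15 CPM, and 133, 148 and 168 CPM at 24 h against at most 6.27 CPM, log2 differences of 5.39 (SE 0.80) and 6.35 (SE 0.42) with adjusted p of 2.31e-12 and 1.71e-17 in edgeR. Gm4951 was called in all 8 comparisons. Its late values in NeuN+ nuclei were 11.6 to 21.6 CPM at 48 h against 0.841, 1.23, 3.08 and 3.98 CPM, and 8.60 to 18.3 CPM at 72 h against 1.59, 1.85, 2.90 and 3.67 CPM, log2 differences of 3.28 (SE 0.52, adjusted p = 2.67e-05, edgeR) and 2.27 (SE 0.48, adjusted p = 1.78e-04, edgeR).

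F830016B08Rik held 1 UMI in the 4 NeuN- saline wells of 6 h, where its IFN-γ wells held 343, 524 and 639 CPM, a ratio of 242 with a counting interval of 43.2 to 9593. At 24 h the IFN-γ wells held 442, 703 and 821 CPM against at most 22.1 CPM, a ratio of 130 (44.2 to 631), and at 48 and 72 h 124 to 210 and 38.1 to 109 CPM against at most 37.5 and 7.19 CPM. No wells overlapped, and the gene was called at all 4 times in NeuN- nuclei. In NeuN+ nuclei it rose from at most 2.52 CPM to between 19.0 and 35.7 CPM at 6 h, and from at most 1.25 CPM to between 70.3 and 105 CPM at 24 h, log2 differences of 5.17 (SE 1.06) and 6.85 (SE 0.60) with adjusted p of 3.48e-09 and 1.56e-16 in edgeR.

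The pseudogene BC023105 was also higher after IFN-γ. Its NeuN- IFN-γ wells held 37.1, 75.2 and 143 CPM at 6 h against 0, 0, 8.56 and 10.0 CPM, and 236, 351 and 435 CPM at 24 h against 1 UMI in 6 saline wells, ratios of 15.7 (counting interval 4.13 to 133) and 194 (34.6 to 7692). At 48 and 72 h no saline well held a UMI, and IFN-γ wells of 66.9 to 124 and 28.6 to 72.5 CPM were at least 16.6-fold and 8.72-fold higher. In NeuN+ nuclei the IFN-γ wells held 9.76 to 18.6 CPM at 6 h and 22.8 to 37.1 CPM at 24 h, the latter at least 80.6-fold higher than the empty saline wells.

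9930111J21Rik2 was the member that moved least, and it was tested in none of the 8 comparisons because too few wells held enough counts. In NeuN- nuclei its saline wells at 6 h held 19.1, 20.0, 25.7 and 29.0 CPM and its IFN-γ wells 39.6, 56.3 and 77.6 CPM, without overlap and with a ratio of 2.46 (counting interval 1.25 to 5.29). At 24 and 48 h the IFN-γ wells ran from 14.7 to 87.0 and from 22.5 to 77.1 CPM and overlapped saline wells of 14.4 to 36.4 and 25.3 to 62.4 CPM, with ratios of 2.46 (1.33 to 4.90) and 1.56 (0.837 to 3.02). At 72 h they lay apart again, 36.3 to 114 CPM against 0, 13.2, 28.8 and 29.8 CPM, a ratio of 3.70 (1.88 to 8.13). In NeuN+ nuclei the groups were apart at 6 h, 3.53 to 7.82 CPM against at most 2.34 CPM, and overlapped at the 3 later times, with ratios of 1.33 to 1.49 whose intervals all include 1.

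The genes that work beside the IRGs give the setting. Of 11 guanylate-binding proteins, the other interferon-induced GTPases that act on vacuoles, 5 of 5 tested in NeuN- nuclei were called higher at both 6 and 24 h, 2 of 2 at 48 h and 1 of 1 at 72 h. In NeuN+ nuclei 5 of 5, 6 of 6 and 1 of 1 were called higher at 6, 24 and 48 h, and none could be tested at 72 h. Of 10 genes for the IFN-γ receptor, its kinases and its transcription factors, 4 of 4 were called at 6 h and 3 of 4 at 24 h in NeuN- nuclei, and 4 of 6 at both times in NeuN+ nuclei. Irf1, the transcription factor that binds the ISRE, rose at 6 h from at most 10.0 CPM to between 318 and 455 CPM in NeuN- wells and from at most 1.07 CPM to between 30.8 and 48.0 CPM in NeuN+ wells. Of 10 genes for Atg8 proteins and their conjugation, the system that directs IRGs to membranes, edgeR called 0 of the 1 to 2 tested in NeuN- nuclei and 0 of the 7 to 8 tested in NeuN+ nuclei. With 0.754 to 7.86% and 0.15 to 1.47% of all genes called higher in the 2 fractions over the 4 times, a list of that size would hold few calls or none, so nothing is read from it. Of 7 further genes of the IRG family, 2 could be tested, both in NeuN+ nuclei at 24 h and both called higher: Gm12250, with 15 to 27.7 CPM against at most 1.19 CPM, and Gm12185, with 11.4 to 26.0 CPM against at most 1.80 CPM. Values for Gm12185, whose span overlaps Tgtp1, may include reads of Tgtp1.

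The next question was whether NeuN+ and NeuN- nuclei respond to a different degree. IRG levels in IFN-γ wells were higher in NeuN- than in NeuN+ nuclei for all members that could be tested, 8 at 6 h, 7 at 24 h, 7 at 48 h and 8 at 72 h, where 15.2%, 13.5%, 16.0% and 15.2% of all genes tested were called higher in NeuN- nuclei. With NeuN+ wells thinned to the median depth of the NeuN- wells, 6, 7, 4 and 4 were called, which were all that still passed the filter. The log2 difference at full depth ranged from 2.21 for BC023105 to 4.16 for Tgtp2 at 6 h, from 2.63 for Irgm1 to 3.44 for BC023105 at 24 h, from 3.68 for Irgm1 to 5.20 for BC023105 at 48 h and from 3.43 for Gm4951 to 4.76 for Tgtp2 at 72 h. In saline wells no member had enough counts for edgeR's filter, beside 17.9% of all genes called higher in NeuN- nuclei, and 6 members were called higher without that filter. The fold response itself was compared with an interaction term, the log2 difference in NeuN- less that in NeuN+ nuclei. Of 8 members tested at each time edgeR called 0, as did DESeq2, where 2.53%, 4.22%, 0.128% and 0.347% of all genes were called in either direction at 6, 24, 48 and 72 h. Unadjusted p-values under 0.05 were given by edgeR to 2, 1, 1 and 2 members and by DESeq2 to 2, 0, 2 and 2. Irgm1 had the lowest adjusted p at every time in edgeR, with interactions of 1.49 (SE 0.59, adjusted p = 0.114), 1.65 (SE 0.86, 0.186), 2.65 (SE 1.38, 0.397) and 2.94 (SE 1.06, 0.115), all towards the larger rise in NeuN- nuclei. These errors leave room for sizeable differences, and the test does not show that the responses are equal. Over the 8 members the interaction had medians of 0.049, 0.31, 1.57 and 1.75 in order of time. It ranged from -1.55 to 2.74 at 6 h and from -1.32 to 1.65 at 24 h. At 48 and 72 h it ranged from 0.096 to 6.25 and from 1.12 to 4.36, all towards NeuN- nuclei. These late signs were not all stable. Without NeuN+ saline well 4, Irgm2 at 72 h went from 1.12 to -1.09.

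Glial markers in NeuN+ wells give the values to set beside the IRG level there. In IFN-γ wells the level in NeuN+ nuclei, as a percentage of that in NeuN- nuclei, had a median over 8 members of 8.74% at 6 h, 11.7% at 24 h, 5.66% at 48 h and 5.88% at 72 h, with ranges of 5.74 to 19.1%, 4.84 to 16.5%, 2.18 to 8.65% and 3.42 to 8.93%. The same percentage for 6 oligodendrocyte markers had a median of 3.91%, 12%, 5.33% and 8.01%, with ranges of 2.53 to 6.97%, 9.82 to 12.9%, 4.38 to 6.38% and 7.27 to 10.5%. In saline wells it was 4.26%, 4.69%, 3.46% and 4.34%, and the 12% at 24 h goes with the lower NeuN- marker level of that time given above. For up to 6 astrocyte markers the medians in IFN-γ wells were 6.20%, 12.3%, 8.61% and 17.6%, and for 4 microglia markers 34.9%, 31.1% and 15.3% at 24, 48 and 72 h. The microglia markers lay far apart, with ranges of 4.53 to 51.9%, 6.61 to 73.0% and 6.54 to 30.3%. At 48 h Siglech and Csf1r stood at 8.74% and 6.61%, but Cx3cr1 and P2ry12 at 53.5% and 73.0%, so their median describes none of them well. The IRG medians lay above the oligodendrocyte and astrocyte medians at 6 h, close to the oligodendrocyte median at 24 and 48 h and below it at 72 h, below the astrocyte medians from 24 h on and below the microglia medians at those times. The part of glial RNA in the NeuN+ values was not tested.

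**Figure D3:**
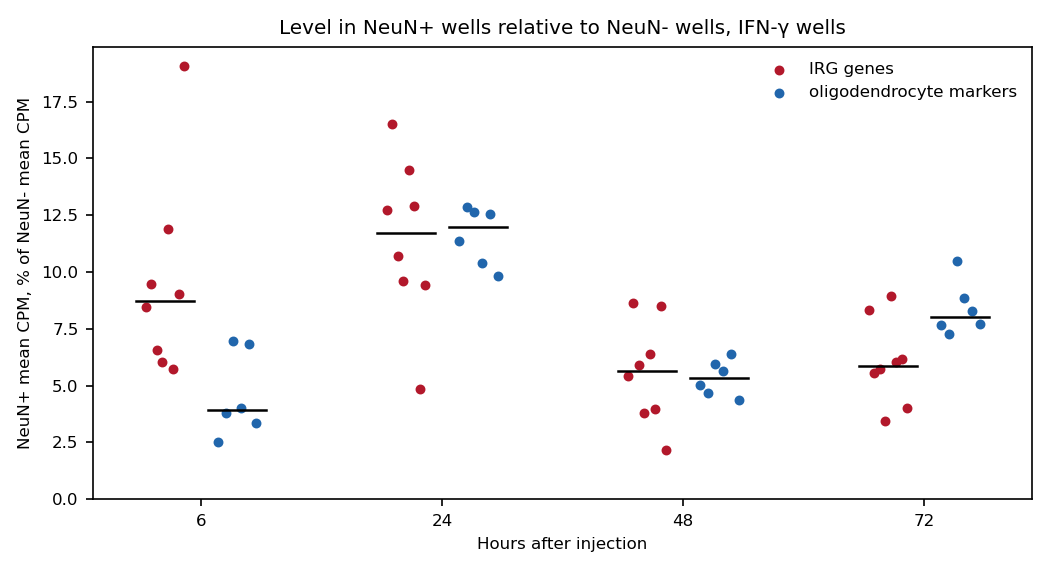
Mean CPM in NeuN+ IFN-γ wells as a percentage of the mean in NeuN- IFN-γ wells, by hours after injection; each point is 1 gene, red for 8 IRG genes and blue for 6 oligodendrocyte markers, and bars are medians. The medians are 8.74% and 3.91% at 6 h, 11.7% and 12% at 24 h, 5.66% and 5.33% at 48 h, and 5.88% and 8.01% at 72 h.

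The time course was read within IFN-γ wells, where each time is a different set of mice. Between 6 and 24 h, edgeR called 2 of 7 members tested higher in NeuN- nuclei, Gm4951 by 1.2 (SE 0.11) and BC023105 by 2.36 (SE 0.22) on the log2 scale, beside 5.82% of all genes. In NeuN+ nuclei 5 of 7 were called higher, beside 1.31% of all genes, with log2 differences of 1.18 (SE 0.11) for Iigp1, 1.71 (SE 0.16) for Tgtp2, 1.57 (SE 0.10) for Gm4951, 1.55 (SE 0.15) for F830016B08Rik and 1.17 (SE 0.20) for BC023105. Irgm1 went the other way in NeuN- nuclei, with a mean of 452 CPM at 6 h and 315 CPM at 24 h, a log2 difference of -0.52 (SE 0.13, adjusted p = 0.00103, edgeR) that is smaller than the limit for a call. That direction reversed when the saline wells of both times were subtracted, to 1.22 (adjusted p = 0.351, edgeR). Between 24 and 48 h all 7 members tested were called lower in both fractions, beside 5.78% of all genes in NeuN- and 1.43% in NeuN+ nuclei, with log2 differences from -2.49 for Iigp1 to -1.07 for Irgm2 in NeuN- and from -3.63 for F830016B08Rik to -2.26 for Irgm2 in NeuN+ nuclei. Between 48 and 72 h 1 member, Gm4951, was called lower in NeuN- nuclei, by -1.07 (SE 0.17), beside 0.1% of all genes. In NeuN+ nuclei edgeR called 0 lower, beside 0.195%, with 3 at an unadjusted p under 0.05, and DESeq2 gave the same counts.

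These steps rest on the IFN-γ wells. Where the saline wells of the same times were subtracted, 1 member, Gm4951 between 6 and 24 h in NeuN- nuclei, was called over all 6 steps, and the log2 change of Irgm2 between 24 and 48 h in NeuN- nuclei turned from -1.07 to 0.74 (adjusted p = 0.694, edgeR). Some of the other estimates shrank with their calls and some did not. In NeuN+ nuclei between 24 and 48 h they were -3.09 for Iigp1, -3.12 for Tgtp2, -3.05 for Gm4951, -3.28 for F830016B08Rik and -5.18 for BC023105. Irgm1 stood at -1.92 there, and Irgm2 went from -2.26 to -0.54. Adjusted p of these 7 members ran from 0.0127 for Gm4951 to 0.835 for Irgm2 in edgeR. In NeuN- nuclei Iigp1 went from -2.49 to -1.17. The others there were -0.95 for Irgm1, -1.07 for Tgtp2, -2.29 for Gm4951, -2.15 for F830016B08Rik and -0.20 for BC023105. The mice of consecutive IFN-γ times also differed in sex by Xist, so the time and the sex of the mice cannot be told apart in these steps. At 72 h the mean level of Iigp1 was 10.7% of its highest time in NeuN- and 6.96% in NeuN+ nuclei. Irgm1 stood at 21.4% and 10.3%, Tgtp2 at 22.6% and 8.01%, and Irgm2 at 36.6% and 19.6%, the highest shares among the members called. For Irf1 these shares were 4.66% and 3.66%.

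The genes whose level was most like the summed IRG level over the 42 wells of a fraction were other interferon-induced genes. Among 11309 genes in NeuN- wells these were Ddx60, Gm12250, Gbp3, Irf1 and Gbp2, with Pearson's r of log2(CPM + 1) from 0.92 to 0.93. Among 11267 genes in NeuN+ wells they were Nlrc5, Gbp3, Gbp7, Ddx60 and Tap1, with r from 0.93 to 0.97. The members themselves had r from 0.90 to 0.95 in NeuN- wells, except 9930111J21Rik2 at 0.61. These r describe wells that share treatment groups and depth, and carry no test.

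Single nuclei at 48 h give the level of the transcripts in each class of cell. By the paper's methods they were sorted so that most were NeuN+, so the numbers of nuclei per class are not those of the tissue. The deposited table holds 4699 nuclei, 1016 from saline and 2574 and 1109 from the IFN-γ libraries, and no barcode is shared between libraries. Clusters were named by markers, with 6 classes called oligodendrocyte-like, astrocyte-like, microglia-like and VGLUT2, GABA or dopamine neuron-like, and 235 nuclei left unnamed. Values below are UMIs of a class summed per library and given as CPM, and intervals cover counting error only. With 1 saline library, the spread between saline mice is not known, and p-values assume that it is that of the 2 IFN-γ libraries.

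Oligodendrocyte-like nuclei went from almost no IRG transcript to 4410 of 5421 and 3021 of 3940 IRG UMIs in the 2 IFN-γ libraries. That share depends on the sorting and on the number of nuclei in each class. The 49 and 54 microglia-like nuclei of these libraries held 1736 and 2380 CPM, which is not below the oligodendrocyte-like level. The saline library held 1 IRG UMI in 191 oligodendrocyte-like nuclei, 1.44 CPM, while the IFN-γ libraries held 1633 CPM in 744 nuclei and 2092 CPM in 306 nuclei. The share of nuclei with any IRG UMI was 0.524% after saline and 76.3% and 82.4% after IFN-γ, or 0%, 68.2% and 75.3% when every nucleus was thinned to 2000 UMIs. All 8 members tested were called higher, with the log2 difference required to pass 3 in each IFN-γ library, beside 0.554% of all genes, and DESeq2 did not call 9930111J21Rik2 (adjusted p = 0.0971). As in the wells, these members passed the filter of 10 UMIs only through the IFN-γ libraries, so the count of calls adds nothing to the levels themselves. No saline UMI was seen for 7 of them, so the levels were at least 74.1-fold and 124-fold higher in the 2 IFN-γ libraries for Iigp1, 71.1-fold and 68.1-fold for Irgm2, 67.2-fold and 97.2-fold for Gm4951, 49.5-fold and 65.6-fold for Tgtp2, 24.9-fold and 28.2-fold for F830016B08Rik, 20.7-fold and 22.3-fold for BC023105 and 10.1-fold and 5.61-fold for 9930111J21Rik2. Irgm1 held the 1 saline UMI, and its 259 and 317 CPM gave ratios of 180 (interval 32.2 to 7120) and 220 (39.3 to 8702). The class is made of 4 clusters, of which the one with 484 nuclei holds 0 saline nuclei, so saline and IFN-γ nuclei of the class are not the same clusters. That cluster, with Tgtp2 and Iigp1 among its leading genes, held 3556 and 2212 of the IRG UMIs of the class in the 2 libraries, at 2869 and 3487 CPM. The 10 members were left out of the clustering, but other genes that IFN-γ induces were not, and Gbp2 and Gm12250 also lead this cluster. Its high IRG level is therefore no separate result. The other 3 clusters held 303, 710 and 1061 CPM in the first and 679, 739 and 1675 CPM in the second IFN-γ library, and 0 to 2.78 CPM in the saline library.

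Microglia-like nuclei held IRG transcripts before IFN-γ. In 31 saline nuclei the members summed to 762.1 CPM, and in 49 and 54 IFN-γ nuclei to 1736 and 2380 CPM, ratios of 2.28 (interval 1.74 to 3.02) and 3.12 (2.41 to 4.11). The resting transcripts were of some members and not of others. 9930111J21Rik2 held 417 CPM after saline and 470 and 478 CPM after IFN-γ, a log2 difference of 0.17 (SE 0.35, adjusted p = 0.884, edgeR), and Irgm2 143 CPM against 174 and 116 CPM, -0.01 (SE 0.53, adjusted p = 0.995, edgeR). Gm4951 held 155 CPM against 419 and 568 CPM, 1.65 (SE 0.46, adjusted p = 0.0139, edgeR), short of the limits for a call. Iigp1 and Tgtp2 had no saline UMI and were the 2 of 7 members called higher, beside 0.564% of all genes. Levels were at least 10.0-fold and 21.7-fold higher for Iigp1 (357 and 775 CPM) and 3.0-fold and 6.27-fold for Tgtp2 (107 and 224 CPM). The floors of Tgtp2 lie below the log2 limit of 3 for a call. Both genes passed the filter on low counts only through the IFN-γ libraries, so the count of calls adds nothing to the levels. DESeq2 called neither. BC023105 had no UMI in any microglia-like nucleus, while oligodendrocyte-like nuclei of the IFN-γ libraries held 89.6 and 96.3 CPM of it.

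Astrocyte-like nuclei held less after IFN-γ than the oligodendrocyte- and microglia-like nuclei of the same library. The saline library had 21 such nuclei with 5 IRG UMIs, 45.8 CPM, and the IFN-γ libraries had 784 CPM in 135 nuclei and 967 CPM in 37 nuclei, ratios of 17.1 (interval 7.28 to 52.9) and 21.1 (8.91 to 65.6). In edgeR 3 of 7 members tested were called higher, beside 0.0844% of all genes. Gm4951 went from 18.3 CPM to 311 and 417 CPM, with a log2 difference of 4.28 (SE 0.93, adjusted p = 1.41e-09). Iigp1 and F830016B08Rik were called without a saline UMI (adjusted p = 0.00339 and 0.00402). Their levels were at least 3.77-fold and 3.75-fold higher in the IFN-γ libraries for Iigp1, and 3.54-fold and 3.91-fold for F830016B08Rik. These floors lie below the log2 limit of 3 for a call. The members passed the filter on low counts only through the IFN-γ libraries, so the count of calls adds nothing to the levels. DESeq2 called 0 of the 7 members tested, with 5 at an unadjusted p under 0.05.

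Neuron-like nuclei held little. Summed IRG levels were 1.19 CPM after saline and 6.41 and 6.18 CPM after IFN-γ in VGLUT2 neuron-like nuclei, ratios of 5.37 (interval 2.51 to 13.7) and 5.17 (2.28 to 13.7). In GABA neuron-like nuclei they were 3.25 against 5.88 and 11 CPM, ratios of 1.81 (1.03 to 3.33) and 3.38 (1.97 to 6.07), and in dopamine neuron-like nuclei 2.27 against 5.66 and 18.8 CPM, ratios of 2.49 (1.02 to 6.46) and 8.28 (3.96 to 19.4). All 6 intervals lie above 1, and they cover counting error between single libraries. Neither edgeR nor DESeq2 called a member in any of the 3 classes. There 5, 2 and 2 members were tested, and 0.0%, 0.0% and 0.0379% of all genes were called higher by edgeR. An unadjusted p under 0.05 was given to 2, 0 and 2 members in edgeR and to 0, 0 and 0 in DESeq2. In the IFN-γ libraries these levels were 0.295 to 0.898% of those in oligodendrocyte-like nuclei of the same library. Single genes differed around that share: Iigp1 stood at 0.0817 to 0.236% and Irgm1 at 0.719 to 2.90%, and the oligodendrocyte genes Mbp and Mag at 0.265 to 0.561% and 0.0949 to 0.268%. Irgm1 gave 24 of the 34 IRG UMIs in neuron-like nuclei after saline, before Gm4951 with 5, 9930111J21Rik2 with 4 and F830016B08Rik with 1, and stood at 1.56 CPM against 2.75 and 3.86 CPM after IFN-γ over all 3 classes, where the saline oligodendrocyte-like nuclei held 1.44 CPM. The share of neuron-like nuclei with any IRG UMI, 2.05 to 4.29% after saline and 7.02 to 25.3% after IFN-γ over the 3 classes, fell to 0 to 0.714% and 1.04 to 3.16% after thinning to 2000 UMIs. Free RNA from glia was not tested as a source. Over the 3 classes together, the IFN-γ libraries held 6.17 and 10.1 CPM of the summed members, 1.57 and 2.43 CPM of Gm4951 and 0.354 and 0.858 CPM of Iigp1. The NeuN+ IFN-γ wells of 48 h, from the other experiment, had higher means of 69.1, 17.1 and 12.3 CPM. The cause of this gap was not tested.

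**Figure D4:**
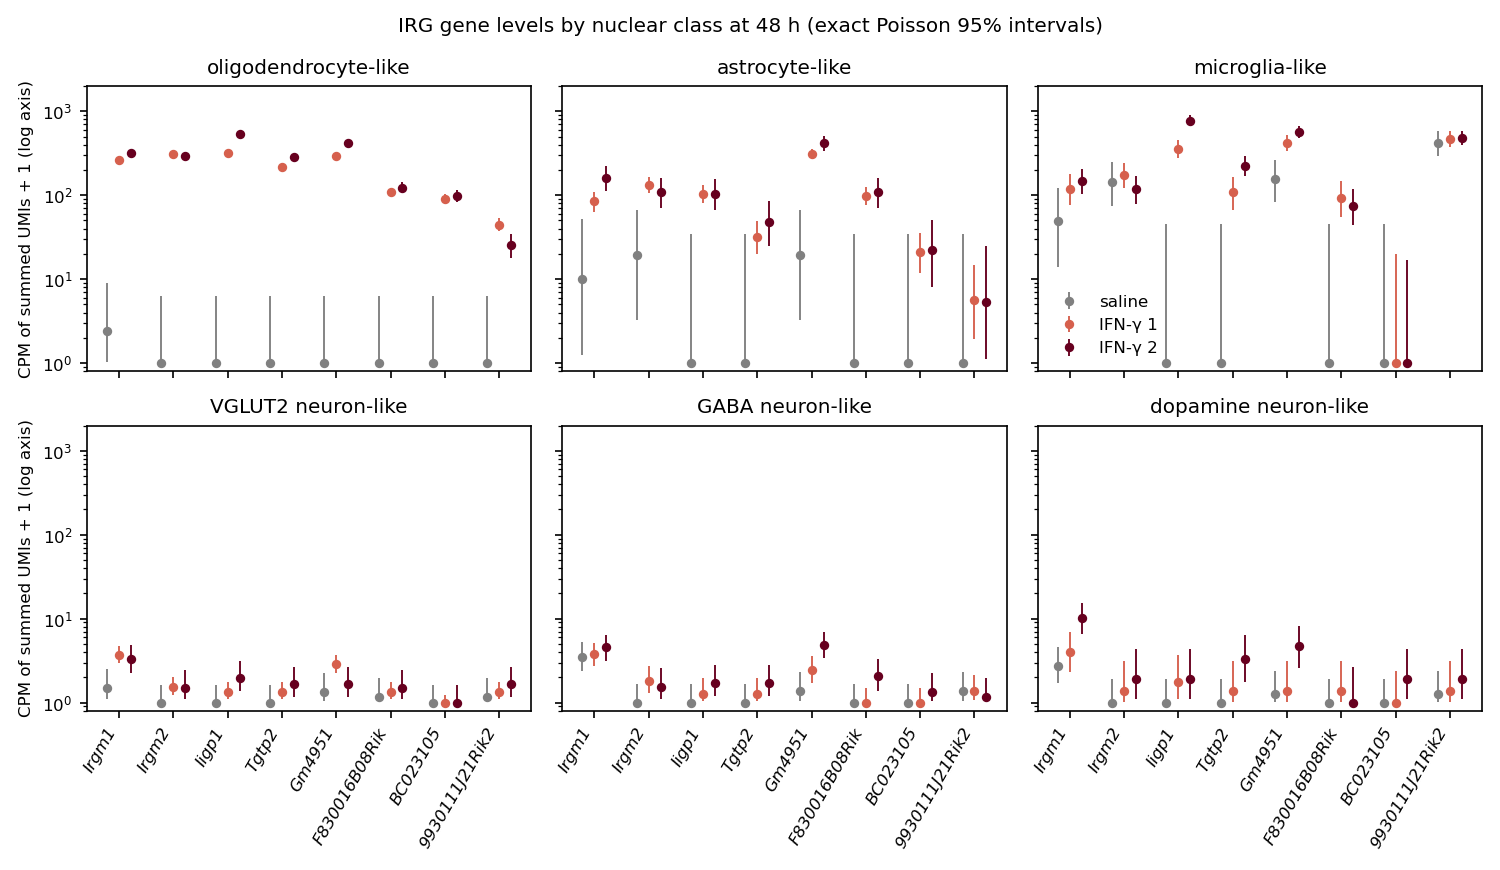
Level of 8 IRG genes in nuclei of 6 classes at 48 h, as CPM + 1 of summed UMIs on a log axis, for the saline library and the 2 IFN-γ libraries; bars are exact Poisson 95% intervals of the count. Oligodendrocyte-like nuclei go from at most 1.44 CPM to between 24.2 and 535 CPM, microglia-like nuclei hold 417 CPM of 9930111J21Rik2 already after saline, and neuron-like nuclei stay at or under 9.17 CPM for every gene.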

How the data were processed

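The authors sorted nuclei by NeuN and deposited UMI counts per gene for 84 plate wells and 4699 single nuclei (10x 3′ v3, introns included). According to their methods and processing notes, reads were aligned with STAR to GRCm38, assigned to Gencode genes and collapsed by UMI, and doublets and rare clusters of nuclei were removed. The deposited counts were used as they are. GEO's labels call every well NeuN+, so the fraction was taken by well barcode from the study's supplementary list and checked against markers. The members and gene lists were chosen with earlier results of these data known. The text names all 10 members, the listed IRG relatives, Irf1 and the 5 most alike genes per fraction; withheld items that the rule also names are not reported here.

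Wells were fitted with the quasi-likelihood test of edgeR 4.0.16 (R 4.3.3; TMM, filterByExpr) per fraction and time, over all genes. Fractions were also compared within IFN-γ wells, and the difference in response by an interaction term. A call needs a log2 difference beyond 1 and an adjusted p under 0.01, as in the study, which used DESeq2 (version 1.42.0 here, an alternative). Nuclei were clustered with scanpy 1.11.5 and leidenalg 0.10.2 (2000 variable genes, 30 components, resolution 1) and named from fixed markers; the scoring rule for names was set after the clusters were seen. Class sums per library with at least 10 UMIs were fitted with edgeR, with a log2 limit of 3 in each IFN-γ library. Alternatives were no filter, RLE factors, DESeq2, thinning, saline wells of all times, 1 fit of all wells, leaving out each well or library and another clustering resolution. Ratios of pooled counts have exact 95% intervals, and floors are 3 counts. Depth was 20962 to 301445 UMIs per NeuN- and 277113 to 1684374 per NeuN+ well. Scripts were tested on simulated counts.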

Additional observations from a re-analysis of the deposited data

Results flagged for a closer look

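In 9 of 83 tests for a single well far from its group (Dixon's test at 95%), a well stood apart, where chance gives about 1 in 20. Values are CPM, followed by those of the nearest well. In NeuN- nuclei after IFN-γ these were the highest well of Tgtp1 at 24 h, with 8.70 against 0, which is 1 UMI, and the highest well of Iigp1 at 48 h, with 417 against 224. In NeuN+ nuclei after IFN-γ at 24 h they were the highest wells of Iigp1, with 199 against 166, and of 9930111J21Rik2, with 7.82 against 2.88. At 48 h they were the highest well of Irgm2, with 16.2 against 8.10, and the lowest of Tgtp2, with 0 against 8.79. At 72 h they were the highest wells of Tgtp2, with 8.59 against 5.01, and of Gm4951, with 18.3 against 11.7. Among saline wells it was the highest NeuN+ well at 72 h for the summed members, with 12.9 against 9.67. No result above was computed without these wells except where each well was left out in turn.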

How the results depend on the processing

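The number of members called higher after IFN-γ in NeuN- nuclei at 6 and 24 h and in NeuN+ nuclei at 6 and 24 h stayed within 1.5 times under all alternatives. The late NeuN+ counts did not. At 48 h the 2 calls became 1 with DESeq2, 1 against saline wells of all times, 6 without a filter on low counts and 6 in 1 fit of all 84 wells, and leaving out each well gave 2 to 3. At 72 h the 2 calls became 0 against saline wells of all times, 5 without the filter and 5 in the joint fit, and leaving out each well gave 0 to 2, with 0 without IFN-γ replicate 1, 3 or 6 and 1 without replicate 2 or 4. In NeuN- nuclei the 7 calls at 48 h became 4 against saline wells of all times and 4 to 7 when each well was left out, 4 without IFN-γ replicate 3. In these fits with fewer wells or all saline wells the members that lost their call had missed the filter on low counts, except Tgtp2 in NeuN+ nuclei at 48 h without saline replicate 2 or 3 (edgeR adjusted p = 0.0363 and 0.0102). Subtracting the saline wells of each time took the calls between 6 and 24 h from 2 to 1 in NeuN- and from 5 to 0 in NeuN+ nuclei, and those between 24 and 48 h from 7 to 0 in both, and it turned Irgm2 in NeuN- nuclei from -1.07 to 0.74 on the log2 scale, as it did 6 further estimates that had not been called. The single call between 48 and 72 h in NeuN- nuclei became 0 by that subtraction and 0 without the filter. With the NeuN+ wells thinned to the median depth of the NeuN- wells, members called higher in NeuN- than NeuN+ IFN-γ wells went from 7 to 4 at 48 h and from 8 to 4 at 72 h, and without the filter 6 were called in saline wells, where none had been tested. Otherwise the causes were not tested.

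In nuclei, 3 astrocyte-like calls became 1 with RLE factors and 0 with DESeq2, and leaving out an IFN-γ library gave 3 to 5, the 5 without replicate 1. The 2 microglia-like calls became 0 with DESeq2, and leaving out a library gave 2 to 3. With a library left out no test could be made, so these are counts of members beyond a log2 difference of 3, not calls. Thinning to 2000 UMIs took the shares of nuclei with an IRG UMI, in the saline and the 2 IFN-γ libraries, to 0%, 68.2% and 75.3% in oligodendrocyte-like, 62.1% and 59.5% (IFN-γ) in astrocyte-like, 0%, 1.24% and 1.67% in VGLUT2, 0.714%, 1.04% and 2.28% in GABA and 0.599%, 1.60% and 3.16% in dopamine neuron-like nuclei. At a clustering resolution of 0.5 the summed level of GABA neuron-like nuclei in the first IFN-γ library was 2.63 in place of 5.88 CPM. No paired analysis was possible because the labels give no replicate numbers shared between groups and do not say which wells came from the same mouse. The shallow NeuN- saline groups, of 459427 to 535033 UMIs each, limit the ratios in NeuN- nuclei.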
